A study of Mus musculus with 4 samples.

Results

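The genes examined here supply NADPH and build, lengthen and desaturate fatty acids. They were Me1, Acly, Fasn, Elovl6, Elovl5, Scd1, Scd2, Fads1 and Fads2, and every probe set that the platform table gives to 1 of these 9 genes alone was taken, which made 20 probe sets. The whole array table covers 12393 genes. RNA came from the intestinal mucosa of male A/J and male C57BL/6J mice, both inbred and 10 weeks old. There were 4 groups of 6 mice: A/J on a high-fat diet for 2 weeks, A/J on a low-fat diet for 2 weeks, C57BL/6J on the high-fat diet for the same time and C57BL/6J on the low-fat diet for the same time. Each group is represented by 1 Affymetrix array of RNA pooled over 2 of its mice, chosen for their average weight, so no group has a replicate and a pool hides the difference between its mice. The strains are known for their unlike gain of fat on rich diets, small in A/J and large in C57BL/6J.

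Cytosolic malic enzyme turns malate into pyruvate and makes NADPH, the reducing power that fatty acid synthesis consumes. ATP citrate lyase frees acetyl-CoA from citrate in the cytosol, fatty acid synthase joins such units into palmitate, the elongases lengthen the chain and the desaturases put in double bonds. In rodent liver the pathway is driven by the sterol regulatory element-binding protein SREBP-1c and by the carbohydrate-sensing factor ChREBP, and several of its genes, malic enzyme among them, also answer to the fatty acid receptor PPAR-alpha. In the intestine, absorbed fatty acids pass through the enterocyte, which re-esterifies them into triglyceride.

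Signals were brought to a common scale, a trimmed mean of 500 on each array, and a scaled signal under 100 was set to that floor before log2 ratios were taken. A probe set is called measured when its mean scaled signal over the 4 arrays was at least 100. By this rule 16 of the 20 probe sets were measured, and each of the 9 genes had at least 1. The other 4 were the Acly probe sets 1438389_x_at and 1439445_x_at, the Scd1 probe set 1415965_at and the Scd2 probe set 1415824_at. Between 2 arrays a ratio of at least 2-fold was counted, with no test. The mean effects of diet and of strain were tested with limma in an additive fit over all 4 arrays, whose error is the strain-by-diet difference and not a spread between pools of 1 group. In bulk RNA, fewer cells of a type and less RNA per cell cannot be told apart.

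The arrays carried strong enterocyte signal: all 10 enterocyte markers on the array were measured, and their summed scaled signal lay between 160279 and 171669. Of 6 adipocyte genes on the array 4 were measured. The summed signal of all 6 was 1820 on high-fat and 1483 on low-fat in A/J, and 1759 on high-fat and 1025 on low-fat in C57BL/6J. It was thus higher on high-fat in both strains. The defining markers adiponectin (Adipoq) and leptin (Lep) were at most 17.7 and 16.3 on every array. Markers of other tissues and cells differed between arrays too. The summed signal of 12 exocrine pancreas genes was 2787 on high-fat and 98313 on low-fat in A/J, and 161406 on high-fat and 102924 on low-fat in C57BL/6J. The summed signal of 4 gastric surface genes was 1163 on high-fat and 2627 on low-fat in A/J, and 8211 on high-fat and 1354 on low-fat in C57BL/6J. The 18S ribosomal RNA control at its 5' end gave 11010 on C57BL/6J low-fat and at most 1675 on the other arrays. The summed signal of 8 T cell genes was highest on C57BL/6J low-fat, at 12966, and lay between 3031 and 7142 on the others. The part of these differences in the results below was not tested.

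Me1, the malic enzyme gene, was the member with by far the highest diet ratios, and both of its probe sets were high on both high-fat arrays. Probe set 1430307_a_at, the brighter, had a scaled signal of 2712 on high-fat, against 381 on low-fat in A/J. In C57BL/6J it had 1087 on high-fat, against 180 on low-fat. The high-fat arrays therefore stood above the low-fat arrays without overlap, by 7.11-fold in A/J and 6.04-fold in C57BL/6J. Probe set 1416632_at had 564 on high-fat and 124 on low-fat in A/J, with 819 on high-fat and 26.4 on low-fat in C57BL/6J. Its diet ratio was 4.54-fold in A/J. In C57BL/6J it was at least 8.19-fold, a bound because the low-fat signal lay under the floor. It was measured through its high-fat signals, since neither low-fat signal exceeded 124.

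In the limma fit over both strains, Me1 rose on the high-fat diet by probe set 1430307_a_at, with a log2 effect of 2.71 (SE 0.195, limma adjusted p = 0.00652) that ranked 4 from the top among the 13431 probe sets tested. The fitted effect of 1416632_at was 2.61 (SE 0.241, limma adjusted p = 0.011). That probe set passed the filter on mean signal only through the diet on which it is high, so its fit is given as a description and does not support the rise. The effect of 1430307_a_at lay between 2.49 and 2.72 under this and all 11 other settings, while its call was lost under 4 of them. Its limma adjusted p was 0.0518 with a floor of 50, 0.445 with a floor of 200, 0.482 with no filter on mean signal and 1.0 with diet as the only factor. The fitted effect of 1416632_at ran more widely, between 1.76 with a floor of 200 and 3.11 with a floor of 50.

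The Me1 probe sets did not agree on strain. On the low-fat diet 1430307_a_at was 2.12-fold higher in A/J than in C57BL/6J, and on the high-fat diet it was 2.49-fold higher. For 1416632_at the ratio was on low-fat at least 1.24-fold, with A/J the higher, but on high-fat its signal of 564 in A/J was 1.45-fold lower than that of 819 in C57BL/6J. The limma strain effect was 1.20 for 1430307_a_at (SE 0.195, adjusted p = 0.0117), and it was -0.11 for 1416632_at, with 1 array at the floor (limma adjusted p = 0.841), with a 95% interval of -0.66 to 0.44. The sign of the second effect turned to 0.39 with a floor of 50, to 0.34 with a pseudocount and to 0.10 without scaling between arrays. The strain call of 1430307_a_at was lost when the probe sets were averaged, with an effect of 0.54 (limma adjusted p = 0.114). It was also lost with a floor of 200, with no filter and with strain as the only factor, at limma adjusted p-values of 0.305, 0.404 and 0.629. Signals of different probe sets are not levels on a common scale, so only these ratios can be set side by side.

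**Figure D1:**
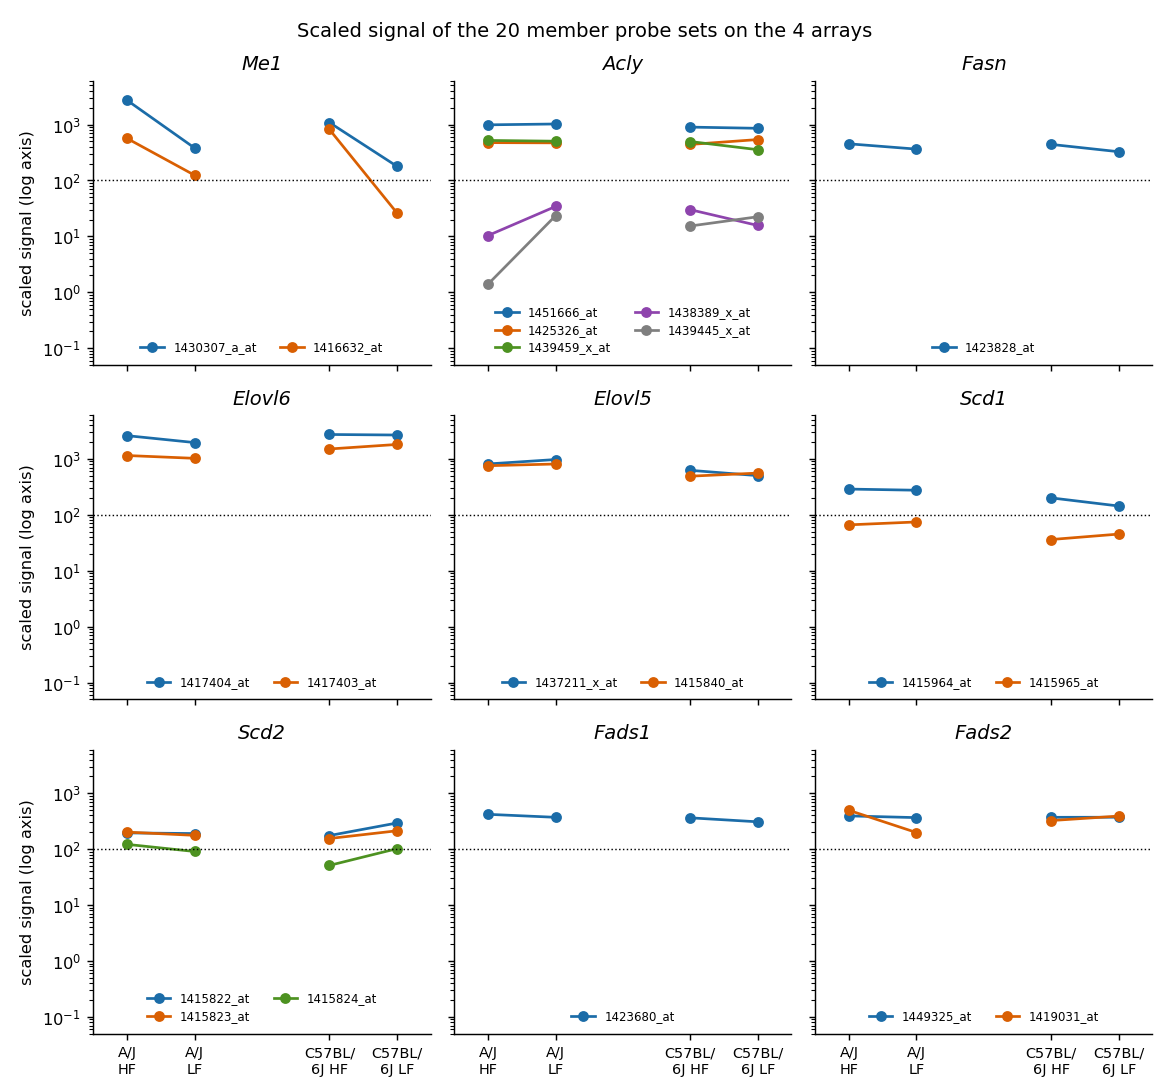
Scaled signal (log axis) of each probe set of the 9 genes on the A/J high-fat (HF), A/J low-fat (LF), C57BL/6J HF and C57BL/6J LF arrays, with 1 array a point, lines joining the arrays of a strain and the dotted line at the floor of 100. Both Me1 probe sets stand far higher on the high-fat than on the low-fat arrays, the brighter one with 2712 against 381 in A/J and 1087 against 180 in C57BL/6J, while the Fasn probe set stays between 327 and 452.

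RefSeq lists 2 start sites for Me1, 8637 bases apart, and the 300-base windows around them, 250 bases before the start and 50 after it in build GRCm38.p6, are shown because Me1 is the member whose signal moved with diet. Capitals mark matches, on either strand, to the motifs searched: TCACNCCAC for the core of a sterol regulatory element, CACGTG for an E-box, CCAAT for the NF-Y box, AGGTCA for the site of nuclear receptors, the direct repeat of that site with 1 base between that PPAR-alpha binds with its partner RXR, and GGGCGG for the Sp1 box. The upstream window lies at chr9:86695865-86696164 and the downstream one at chr9:86687228-86687527, both on the minus strand. The Fasn window, at chr11:120824498-120824797 on the minus strand, is set beside them as that of the synthase itself.
Me1, upstream start: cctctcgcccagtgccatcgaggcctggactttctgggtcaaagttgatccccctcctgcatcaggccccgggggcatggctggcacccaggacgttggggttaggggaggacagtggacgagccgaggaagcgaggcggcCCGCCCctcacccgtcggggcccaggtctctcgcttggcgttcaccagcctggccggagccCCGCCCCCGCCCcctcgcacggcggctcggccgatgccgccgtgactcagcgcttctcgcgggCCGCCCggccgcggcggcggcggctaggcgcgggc
Me1, downstream start: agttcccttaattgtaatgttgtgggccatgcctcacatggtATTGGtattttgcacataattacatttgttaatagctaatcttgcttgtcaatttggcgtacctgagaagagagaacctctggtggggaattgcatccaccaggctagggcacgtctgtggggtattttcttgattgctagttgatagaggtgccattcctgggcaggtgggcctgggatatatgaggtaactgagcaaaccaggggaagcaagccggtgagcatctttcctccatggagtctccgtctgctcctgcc
Fasn: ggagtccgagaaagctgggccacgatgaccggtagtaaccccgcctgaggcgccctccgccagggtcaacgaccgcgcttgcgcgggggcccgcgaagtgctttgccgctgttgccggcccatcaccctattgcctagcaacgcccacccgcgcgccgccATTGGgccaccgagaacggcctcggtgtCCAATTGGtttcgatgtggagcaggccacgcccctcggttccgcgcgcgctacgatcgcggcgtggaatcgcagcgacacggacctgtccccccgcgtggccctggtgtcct

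The upstream Me1 window is 74.7% G and C and holds 4 Sp1 boxes, at bases 142, 203, 209 and 266. The downstream Me1 window is 48.3% G and C and holds 1 NF-Y box, at base 43. The Fasn window holds 3 NF-Y boxes, at bases 161, 189 and 192, the last pair overlapping in a palindrome. Windows were found for 6 of the 9 genes, 7 in all, and of these 7 windows 4 held an NF-Y box, 3 an Sp1 box, 2 the receptor site, 1 an E-box, and 0 the sterol element core or the direct repeat. Over all 32851 such windows in the RefSeq table, 37.4% held an NF-Y box, 35.7% an Sp1 box, 16.3% the receptor site, 7.15% an E-box, 1.24% the sterol element core and 0.0396% the direct repeat. A match describes letters and is not a binding site, and a window without a match says nothing about other parts of the gene. Only the exact letters were searched, so a variant of a motif that differs in any of its bases is not marked or counted. A window without a match may still hold such a variant. The upstream Me1 window holds gggtcaaagttga, which resembles the direct repeat without matching it and is left in lower case. How many windows hold such variants was not counted.

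Acly, which supplies cytosolic acetyl-CoA, did not share the Me1 pattern. Its brightest probe set, 1451666_at, had 988 on high-fat and 1023 on low-fat in A/J, and 900.1 on high-fat and 857 on low-fat in C57BL/6J. Those 4 signals lie within 1.19-fold, and the high-fat and low-fat arrays overlap. Probe set 1425326_at had 475, 471, 441 and 539 in the order A/J high-fat, A/J low-fat, C57BL/6J high-fat and C57BL/6J low-fat. Probe set 1439459_x_at had 519.7, 504, 497 and 355 in that order, so that its 1 low array was C57BL/6J low-fat. The limma diet effects of the 3 probe sets were 0.01, -0.14 and 0.26, none of which passed the test, and their 95% intervals together ran from -0.59 to 0.73. The other 2 Acly probe sets stayed at or under 34.3 on every array.

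Fasn, the fatty acid synthase itself, was somewhat brighter on both high-fat arrays. Probe set 1423828_at had 452 on high-fat and 364 on low-fat in A/J, and 441 on high-fat and 327 on low-fat in C57BL/6J. Both high-fat arrays lay above both low-fat arrays, by 1.24-fold in A/J and 1.35-fold in C57BL/6J, with a limma log2 effect of 0.37 (adjusted p = 0.694) and a 95% interval of -0.07 to 0.81. The strains differed by 1.11-fold on low-fat and 1.02-fold on high-fat, with A/J the higher. The interval of Fasn lies wholly below that of the brighter Me1 probe set, 2.27 to 3.16.

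**Figure D2:**
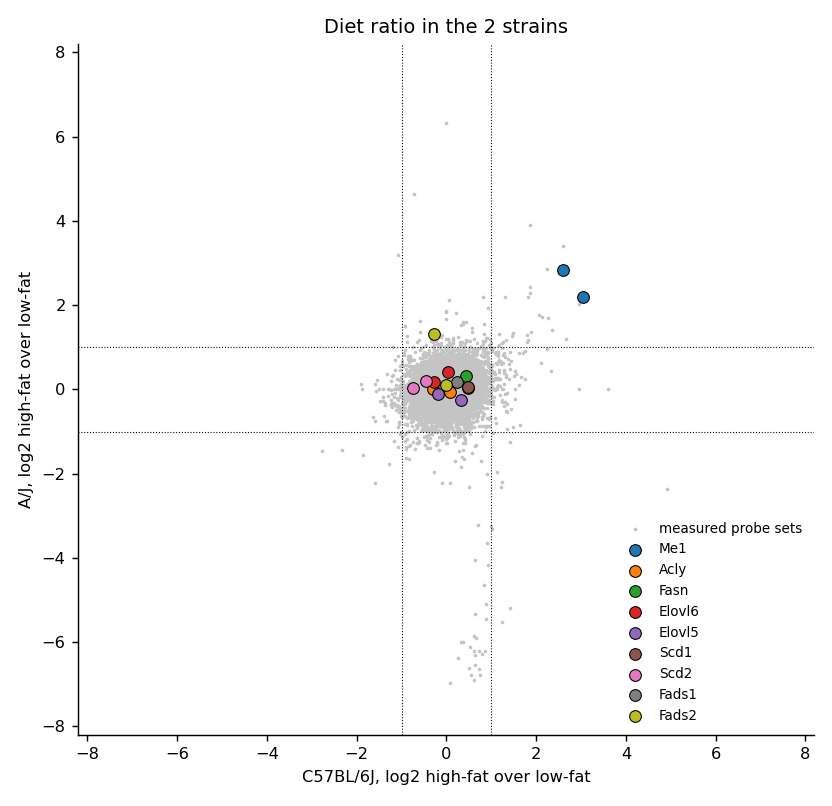
Log2 ratio of high-fat over low-fat in A/J (vertical axis) against that in C57BL/6J (horizontal axis), with the 13431 measured probe sets as small grey points, the 16 measured member probe sets coloured by gene, and dotted lines at 2-fold. Both Me1 points lie in the upper right, past 2-fold in both strains, 1 Fads2 point lies above 2-fold in A/J alone, and the other members lie within 2-fold in both strains.

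Elovl6, the elongase that lengthens palmitate, had strong signal on every array, and neither of its probe sets had a 1.5-fold diet ratio in a strain. Probe set 1417404_at had 2601 on high-fat against 1958 on low-fat in A/J, and 2730 on high-fat against 2672 on low-fat in C57BL/6J. Probe set 1417403_at had 1148 on high-fat against 1023 on low-fat in A/J, and 1503 on high-fat against 1811 on low-fat in C57BL/6J. In both probe sets A/J low-fat was the lowest array, and in 1417403_at both A/J arrays lay below both C57BL/6J arrays. Its strain ratio was 1.77-fold lower in A/J on low-fat and 1.31-fold lower on high-fat, with a limma strain effect of -0.61 (adjusted p = 0.146).

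Elovl5, which elongates polyunsaturated fatty acids, was brighter in A/J than in C57BL/6J on both diets. Probe set 1437211_x_at had 812 on high-fat and 974 on low-fat in A/J, against 624 on high-fat and 502 on low-fat in C57BL/6J. Probe set 1415840_at had 755 and 810 on the A/J high-fat and low-fat arrays, against 490.4 and 557 on the C57BL/6J high-fat and low-fat arrays. Both A/J arrays lay above both C57BL/6J arrays in both probe sets. The limma strain effects were 0.67 and 0.58 (limma adjusted p = 0.131 and 0.137), past the unadjusted threshold only. Without scaling between arrays both passed, at limma adjusted p-values of 0.0266 and 0.0322, with the median of all probe sets shifted toward A/J by 0.21 on low-fat and 0.30 on high-fat. Their diet effects were 0.03 and -0.14 (limma adjusted p = 0.993 and 0.913).

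Scd1 makes oleate and palmitoleate from saturated chains. Its brighter probe set, 1415964_at, had 288 on high-fat and 275 on low-fat in A/J, against 200.5 on high-fat and 144 on low-fat in C57BL/6J. Both A/J arrays lay above both C57BL/6J arrays, by 1.92-fold on low-fat and 1.44-fold on high-fat. The limma strain effect was 0.73 (adjusted p = 0.0888, 95% interval 0.26 to 1.20), which missed the threshold over probe sets and passed it, at a limma adjusted p of 0.0488, when each gene was represented by its brightest probe set and, at 0.0177, without scaling. The diet effect was 0.28 (limma adjusted p = 0.813). The dimmer probe set, 1415965_at, stayed at or under 74.5 on every array.

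Scd2, a stearoyl-CoA desaturase whose gene lies between those of its paralogs Scd3 and Scd4 on chromosome 19, with Scd1 on the far side of Scd4, had its highest signal on C57BL/6J low-fat in 2 of its 3 probe sets. Probe set 1415822_at had 195 on high-fat and 190.0 on low-fat in A/J, and 175 on high-fat and 293 on low-fat in C57BL/6J. Probe set 1415823_at had 201.5, 176, 155 and 213 in the same order of arrays. In C57BL/6J the high-fat signal was thus 1.67-fold and 1.37-fold lower, while in A/J it was 1.03-fold and 1.14-fold higher. The limma diet effects were -0.35 and -0.13 (limma adjusted p = 0.778 and 0.937). The array with the high Scd2 signals is also that with the 18S signal of 11010 and the summed T cell signal of 12966, whose part in this difference was not tested. The genes of the Scd family are closely related in sequence, and cross-hybridisation between them was not tested. Probe set 1415824_at, not measured by its mean, had 122 on high-fat and 90.8 on low-fat in A/J, and 51.2 on high-fat and 102 on low-fat in C57BL/6J.

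Fads1 and Fads2 are neighbours on chromosome 19 and encode the desaturases that act in turn on the path from linoleic to arachidonic acid. Fads1, by probe set 1423680_at, had 419 on high-fat and 371 on low-fat in A/J, and 363 on high-fat and 308 on low-fat in C57BL/6J. The ratios were 1.13-fold and 1.18-fold higher on high-fat, but A/J low-fat lay above C57BL/6J high-fat, so the diets overlap across strains, with a limma diet effect of 0.21 (adjusted p = 0.865). The Fads2 probe set 1449325_at had 393, 366, 371 and 372 in the order A/J high-fat, A/J low-fat, C57BL/6J high-fat and C57BL/6J low-fat, and these 4 signals lay within 1.07-fold.

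The second Fads2 probe set did not follow the first. Probe set 1419031_at had 494 on high-fat and 198 on low-fat in A/J, a ratio of 2.49-fold, and 324 on high-fat and 390.2 on low-fat in C57BL/6J, where high-fat was 1.20-fold lower. A/J low-fat was the array that stood apart, and it was 1.97-fold lower than C57BL/6J low-fat. The difference between the diet effects of the strains was 1.59 on the log2 scale, the largest among the 15 member probe sets with no signal under the floor, and the design leaves no degree of freedom to test it. For Me1 1416632_at, with an array under the floor, the difference moved between -1.85 and -0.54 with the setting. The limma diet effect over both strains was 0.53 (adjusted p = 0.771), with a 95% interval of -0.24 to 1.29. The other probe set gave a difference of 0.11.

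**Figure D3:**
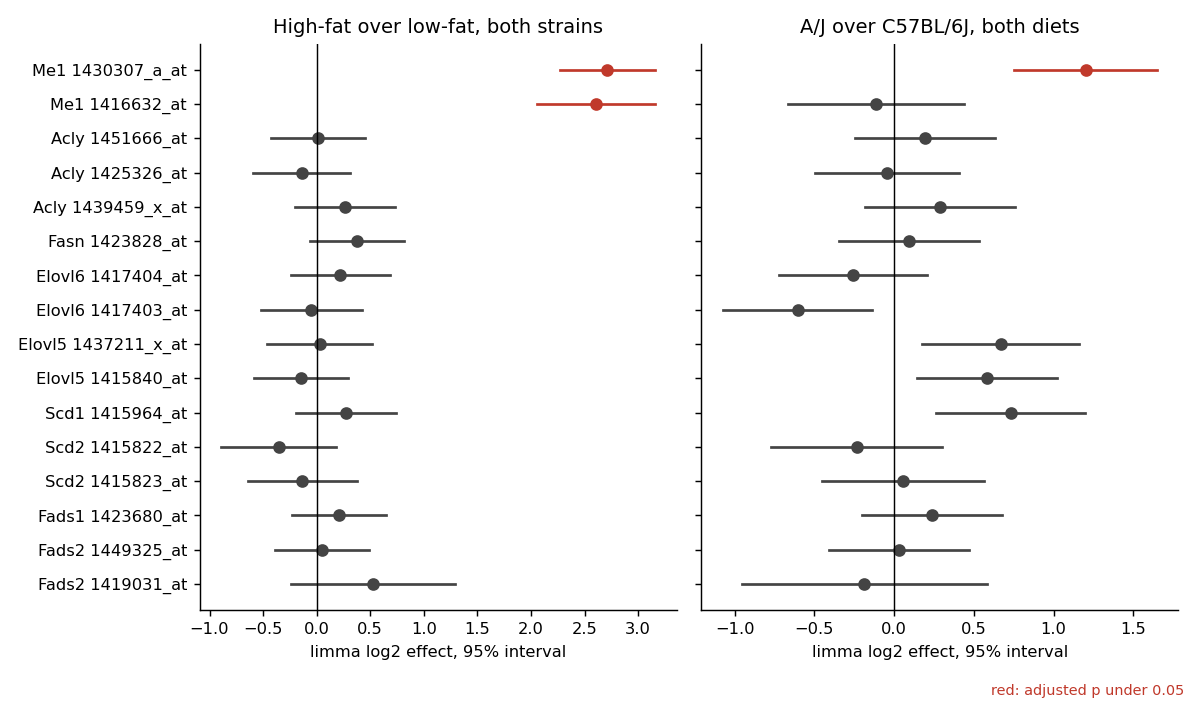
Limma log2 effect of high-fat over low-fat (left) and of A/J over C57BL/6J (right) for the 16 measured member probe sets, with points as estimates from the 4 arrays, bars as 95% intervals and red for an adjusted p under 0.05. The Me1 probe sets stand at 2.71 and 2.61 for diet, and in the strain panel 1 of them is at 1.20 and the other at -0.11.

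Counted over the members, 3 of 16 measured probe sets had a ratio of 2-fold or more in A/J, with high-fat the higher (both of Me1 and 1 of Fads2), against 0.812% of all 13431 measured probe sets. None was as much lower, against 1.05%. In C57BL/6J 2 of 16 passed 2-fold upward, both of Me1, against 1.04%, and 0 lower, against 0.64%. Both Me1 probe sets were past 2-fold upward in both strains, against 0.194% of all probe sets, and 0 members downward, against 0.067%. By the limma test 2 of 16, again those of Me1, were called higher with diet, against 0.134%, and 0 lower, against 0.0372%. In each of these upward counts 1416632_at had passed the filter only through its high-fat signals. Without it the A/J count keeps Me1 1430307_a_at and Fads2 1419031_at, and the other upward counts keep Me1 1430307_a_at alone. At an unadjusted p under 0.05 the limma counts were also 2 and 0, against 4.45% and 3.76%. The median log2 diet ratio over the 16 was 0.13 (A/J) and 0.05 (C57BL/6J), and the median over all measured probe sets was 0.00 in both. Of the 9 genes, Me1 passed the diet test and the other 8 did not.

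Between strains, 1 of 16 probe sets, Me1 1430307_a_at, was past 2-fold with A/J the higher on low-fat, against 3.14% of all measured probe sets, and 0 were lower, against 2.8%. On high-fat the same probe set was the only one higher, against 1.98%, and 0 were lower, against 2.55%. The limma strain test called 1 of 16 higher in A/J, against 2.37%, and 0 lower, against 2.49%. At an unadjusted p under 0.05 the limma counts were 4 higher, against 11.2%, and 1 lower, against 9.16%. For the difference of the diet ratios, 1 of 16 was past 2-fold upward in A/J, the Fads2 probe set, against 1.72%, and 0 downward, against 2.55%. A single probe set of 16 is the smallest count above 0 and is not read as a departure from these shares.

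The other sources of NADPH were compared next, by the brightest probe set of each gene. Of 15 measured genes on this list, 2 had a ratio of 1.5-fold or more in A/J, against 4.99% of the 8036 measured genes, and 1 was lower, against 4.7%. In C57BL/6J 2 were higher, against 5.13%, and 1 was lower, against 4.63%. Idh1, the cytosolic isocitrate dehydrogenase, was the 1 gene past 1.5-fold in both strains, against 1.16% of genes, and 0 were past it downward in both, against 0.647%. It had 7108 on high-fat and 4719 on low-fat in A/J, and 5216 on high-fat and 2233 on low-fat in C57BL/6J. The ratios were 1.51-fold and 2.34-fold, but the limma diet effect of 0.91 did not pass the test (adjusted p = 0.301). Mthfd1, of folate metabolism, also had a log2 ratio of 0.59 in A/J, with -0.03 in C57BL/6J. Aldh1l1, another folate enzyme that makes NADPH, had log2 ratios of -0.75 in A/J and -0.58 in C57BL/6J, and Pgls of the pentose phosphate pathway had -0.37 and -0.61. Pgd and Tkt, of the same pathway, had log2 ratios between -0.31 and 0.31. By the limma diet test 0 of the 15 passed in either direction, against 0.162% of genes called higher and 0.0622% called lower.

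Of these NADPH genes, 1 was higher and 1 lower in A/J than in C57BL/6J by the limma strain test, against 2.36% of genes each way. Nnt, the mitochondrial transhydrogenase in which C57BL/6J mice are known to carry a deletion, had 1176 on high-fat and 1206 on low-fat in A/J, against 507 on high-fat and 391.8 on low-fat in C57BL/6J. Its strain effect was 1.42 (limma adjusted p = 0.00658). H6pd, the hexose-6-phosphate dehydrogenase of the endoplasmic reticulum, had 119 on high-fat and 56.0 on low-fat in A/J, against 392.2 on high-fat and 188 on low-fat in C57BL/6J. Its fitted strain effect was -1.31 (limma adjusted p = 0.0192), with A/J low-fat at the floor. It passed the filter on mean signal only through C57BL/6J, where it is high, so its call is given as a description. Its diet ratio was 2.09-fold in C57BL/6J and at least 1.19-fold in A/J, a bound because the low-fat signal lay under the floor.

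Genes of citrate export and acetyl-CoA supply had median log2 diet ratios of 0.02 in A/J and 0.13 in C57BL/6J over 11 genes. In A/J 1 was past 1.5-fold upward, against 4.99% of all measured genes, and 1 downward, against 4.7%. In C57BL/6J 1 was past it upward, against 5.13%, and 0 downward, against 4.63%. By the limma diet test 0 passed, against 0.162% of genes called higher and 0.0622% called lower. The mitochondrial oxoglutarate carrier Slc25a11 had 0.63 and 0.41, and the pyruvate carrier Mpc1 had -0.60 and 0.01, in A/J and in C57BL/6J. Pyruvate carboxylase (Pcx) had -0.35 and 0.13, cytosolic aconitase (Aco1) 0.10 and 0.44, and the pyruvate dehydrogenase subunits Pdhb and Pdha1 lay between -0.21 and -0.03. Acss1, which activates acetate in mitochondria, was higher in A/J, with 597 on high-fat and 475 on low-fat in A/J, against 280.4 on high-fat and 179.9 on low-fat in C57BL/6J. Its limma strain effect was 1.25 (adjusted p = 0.0107), and its log2 diet ratios were 0.33 in A/J and 0.64 in C57BL/6J.

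Of the other fatty acid synthesis genes, 12 were on the array and 5 were measured. The acetyl-CoA carboxylases, which make malonyl-CoA for fatty acid synthase, were under the floor on every array, with at most 91.6 for Acaca and 62.4 for Acacb. The acyl-CoA synthetase Acsl5 had log2 diet ratios of 0.33 in A/J and 0.48 in C57BL/6J, and Mid1ip1, an activator of acetyl-CoA carboxylase, had 0.27 and -0.27. The mitochondrial synthesis genes Mcat, Mecr and Cbr4 had ratios between -0.44 and 0.42. For the other elongation and desaturation genes the medians were 0.04 and 0.03 over 14 measured genes. Past 1.5-fold upward were 0 in A/J, against 4.99% of all measured genes, and 1 in C57BL/6J, against 5.13%. That gene was the dehydratase Hacd1, with 0.30 in A/J and 0.69 in C57BL/6J. Its paralog Hacd2 had 0.33 and -0.03, and Hacd3 had 0.14 and 0.20. The dehydratase Hacd4, the elongase Elovl7, the sphingolipid desaturase Degs1 and the reductase Cyb5r3, which feeds electrons to desaturases, lay between -0.21 and 0.14. In neither list did a gene pass the limma test for diet or strain. Of all measured genes, 0.162% were called higher and 0.0622% lower with diet, and 2.36% each way by strain.

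Of the regulators of lipogenesis, 20 were measured, and 0 passed the limma diet test, against 0.162% of genes called higher and 0.0622% called lower. Srebf1, which encodes SREBP-1, had 1677 on high-fat and 1237 on low-fat in A/J, and 1313 on high-fat and 979 on low-fat in C57BL/6J. The log2 ratios were 0.44 and 0.42, with a limma diet effect of 0.43 (adjusted p = 0.620). Nr1h3, which encodes the oxysterol receptor LXR-alpha, had ratios of 0.42 and 0.49. Rxrb, a partner of such receptors, and Pparg were the 2 genes past 1.5-fold in both strains, with 0.65 and 0.66 for Rxrb and 0.68 and at least 0.86 for Pparg. Pparg, with 190.0 on high-fat and 119 on low-fat in A/J, and 182 on high-fat and 49.8 on low-fat in C57BL/6J, was measured only through its high-fat signals. Ppara had 0.48 and 0.53 with diet, and by strain it was 1.91-fold higher in A/J on low-fat and 1.85-fold higher on high-fat, with a limma strain effect of 0.91 (adjusted p = 0.0351). Mlxipl, which encodes ChREBP, had -0.30 and 0.19, and its partner Mlx had -0.38 and -0.06.

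Among the other regulators, Usf1 had 0.49 and 0.30, Rxra 0.15 and 0.43, and Mbtps1, which cleaves SREBP precursors, 0.29 and 0.18. The coactivators Ppargc1a and Ppargc1b had -0.49 and -0.46, and -0.12 and -0.20. Usf2 had -0.19 and -0.45, the thyroid hormone receptor genes Thra and Thrb -0.39 and -0.09, and -0.15 and -0.43. Srebf2, Scap and Insig2, of the sterol-sensing machinery, had -0.31 and 0.01, 0.31 and -0.25, and 0.03 and -0.10. Lpin1 and Hnf4a lay between -0.17 and 0.08. In this list of regulators 2 genes of 20 were past 1.5-fold upward in each strain, against 4.99% (A/J) and 5.13% (C57BL/6J) of all genes. In both strains 2 were past it, against 1.16%. These were Rxrb and Pparg, and without Pparg, measured only through its high-fat signals, each of these counts keeps Rxrb alone. Downward 0 were past it in either strain, against 4.7% (A/J) and 4.63% (C57BL/6J). The median log2 ratio was 0.00 for A/J and 0.05 for C57BL/6J. The strain call of Ppara was lost with a floor of 50, and that of Acss1, above, with averaged probe sets. With a floor of 200 or no filter, 0 genes of these lists passed the strain test.

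Target genes of PPAR-alpha formed the list with the highest median diet ratios of the 6 metabolic lists compared, 0.81 in A/J and 0.60 in C57BL/6J over 24 measured genes. Past 1.5-fold upward were 16 genes in A/J and 12 in C57BL/6J, against 4.99% and 5.13% of all measured genes. In both strains 11 were past it upward, against 1.16%. Downward 0 were past it in either strain, against 4.7% (A/J) and 4.63% (C57BL/6J). Acot1 is among the 16 but not among the 12 or the 11. It had 274 on high-fat and 38.9 on low-fat in A/J, and 148 on high-fat and 72.3 on low-fat in C57BL/6J. It was thus measured only through its high-fat signals. By limma 3 of the 24 rose with diet, against 0.162% of all genes, and 0 fell, against 0.0622%. They were the pyruvate dehydrogenase kinase Pdk4, the fatty acid transporter Cd36 and the glycerol channel Aqp3. Their fitted effects were 1.99, 1.37 and 1.41 (limma adjusted p = 0.0145, 0.0499 and 0.0481), with C57BL/6J low-fat at the floor for Pdk4 and Aqp3. The count was 1 with quantile normalization, with averaged probe sets and with shared probe sets left out, and 0 with floors of 50 and 200, with no filter and with diet as the only factor. Acaa1b, a peroxisomal thiolase, was past 2-fold in both strains and did not pass the test, with an effect of 1.17 (limma adjusted p = 0.112). The carnitine carrier Slc25a20 had log2 ratios of 1.10 in A/J and 0.68 in C57BL/6J, and the oxidation enzyme Eci1 had 1.05 and -0.27. Low in the list were Ehhadh with 0.09 and -0.25, Decr1 with 0.08 and 0.08, and the fatty acid binding protein gene Fabp2 with 0.07 and 0.16. By strain 7 of the 24 were higher in A/J and 0 lower, against 2.36% each way: Pdk4, Cd36, Aqp3, Acaa1b, the oxidation enzymes Acaa2 and Acadl and the acyl-CoA synthetase Slc27a2, with limma effects between 0.98 and 3.09 (limma adjusted p at most 0.0264). With a floor of 50 the strain count was 3. This list was chosen with earlier results of these data known, so its counts are a description beside the shares and not a test of the list.

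The measured adipocyte markers were read beside these genes. Cidec, a lipid droplet protein, had 1037 on high-fat and 766 on low-fat in A/J, and 1060.0 on high-fat and 553 on low-fat in C57BL/6J. The fatty acid binding protein gene Fabp4 had 242 on high-fat and 404 on low-fat in A/J, and 308 on high-fat and 195 on low-fat in C57BL/6J. Resistin (Retn) lay between 108 and 146. Lipoprotein lipase (Lpl) had 390 on high-fat and 180.5 on low-fat in A/J, and 218 on high-fat and 110.1 on low-fat in C57BL/6J. Of the 6 on the array, Lpl was the 1 past 1.5-fold upward in both strains, against 1.16% of all measured genes. Its limma diet effect was 1.05 (adjusted p = 0.162). In C57BL/6J 3 of the 4 were past 1.5-fold upward, against 5.13% of all measured genes. In A/J 1 was past it upward, against 4.99%, and 1, Fabp4, downward, against 4.7%. The part of these genes in the Me1 result was not tested.

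**Figure D4:**
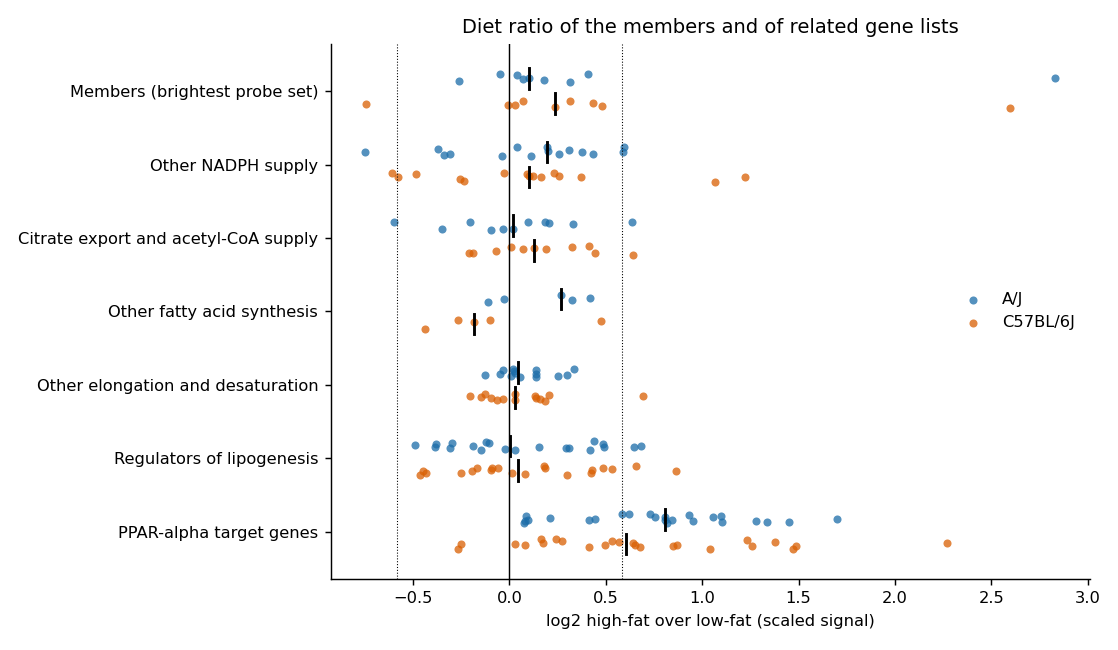
Log2 ratio of high-fat over low-fat for the brightest probe set of each measured gene, in A/J (blue, upper row of each list) and C57BL/6J (orange, lower row), for the 9 members and 6 related lists, with 1 point a gene, black ticks at the medians and dotted lines at 1.5-fold. Me1 stands alone at 2.83 in A/J and 2.60 in C57BL/6J, and the PPAR-alpha targets have medians of 0.81 and 0.60, while the other lists have medians between -0.18 and 0.27.

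The genes with the profile nearest to Me1 were sought among 7226 genes with all 4 scaled signals at or above the floor. Likeness was the distance between log2 profiles over the 4 arrays, each centred on its own mean, so that 0 is an identical shape. The nearest 5 were the tubulin Tubb2a at 0.82, the laminin subunit Lamb3 at 1.02, the small GTPase Rab30 at 1.03, the carboxylesterase Ces1f at 1.17 and the leukotriene C4 synthase Ltc4s at 1.31. All were higher on high-fat in both strains, by 2.28-fold to 4.55-fold in A/J and 3.54-fold to 7.71-fold in C57BL/6J. The A/J ratio of Me1, 7.11-fold, exceeded that of each of the 5, and 2 of them, Tubb2a and Ces1f, exceeded its 6.04-fold ratio in C57BL/6J. None of the other 8 members was among them. The probe sets of Tubb2a and Ces1f are named _s_at, the shared class, and signal from other transcripts was not tested. Genes with a signal under the floor on any array, Pdk4 and Aqp3 among them, could not enter the search. With 4 arrays this search is a description, and it carries no test.

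**Figure D5:**
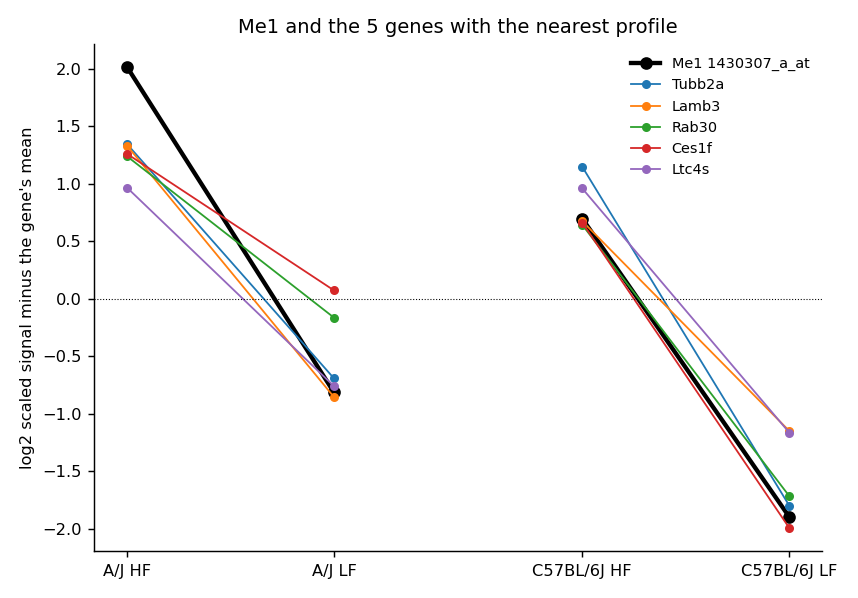
Log2 scaled signal minus the mean of the same gene over the 4 arrays (vertical axis) on the A/J high-fat (HF), A/J low-fat (LF), C57BL/6J HF and C57BL/6J LF arrays, for the brighter Me1 probe set (black) and the 5 genes nearest to it. Each line is high on HF and low on LF in both strains, and Me1 has the highest point on A/J HF.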

How the data were processed

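The deposited values are intensities: per the labels' protocols, the authors hybridised biotinylated cRNA to Mouse Expression Array 430A and computed a signal per probe set with Microarray Suite 5.0 at its defaults, which sets perfect match against mismatch probes. The sources used here name no scaling target. Here, 64 control probe sets were set aside, and each array was multiplied by a factor between 2.72 and 3.41 that set the mean of the other 22626 probe sets to 500, after 2% had been trimmed off either end. Values under 100 were set to 100, and log2 was taken. Of the 22626, 20380 have 1 gene in the platform annotation, 691 several and 1555 none. All 13431 measured probe sets entered the limma 3.58.1 fit (R 4.3.3, strain and diet terms, 1 residual degree of freedom, Benjamini-Hochberg adjustment, threshold 0.05). Simulated data put through the same fit had additive effects and equal noise in every row, with no strain-by-diet difference beyond that noise. They therefore do not show how the fit performs on these data. The 1 array per group limits precision. The members and lists were chosen with earlier results of these data known. All member probe sets and all measured regulators were named. Other list genes were named when called. With all signals above the floor, the 2 highest and 2 lowest ratios of a pathway list in a strain were named too. A few more were chosen after their values were seen (Acot1, Pgd, Tkt, Acaca, Acacb and the adipocyte markers). Alternatives were quantile normalization, no scaling, floors of 50 and 200, a pseudocount of 50, no filter, gene-level rows, leaving out shared probe sets, a variance trend and 1 factor. Python 3.11.15 was used with numpy 2.4.6, pandas 2.3.3 and matplotlib 3.10.9.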

Additional observations from a re-analysis of the deposited data

Results flagged for a closer look

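In 9 of the 16 measured member probe sets, the diet ratio ran opposite ways in A/J and C57BL/6J, or the strain ratio ran opposite ways on the diets. This is 56.2% of the members, against 57.2% of all 13431 measured probe sets. With 1 array a group these differences were not tested. The A/J diet effect minus the C57BL/6J diet effect, on the log2 scale, was 1.59 for Fads2 1419031_at and 0.11 for Fads2 1449325_at. It was 0.78 and 0.65 for Scd2 1415822_at and 1415823_at, 0.44 for Elovl6 1417403_at and -0.58 for Elovl5 1437211_x_at. For Acly it was 0.30 in 1425326_at and -0.12 in 1451666_at. For Me1 1416632_at it was -0.85 with C57BL/6J low-fat at the floor. Of these, only Fads2 1419031_at was past 2-fold with all signals above the floor.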

How the results depend on the processing

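No paired analysis was possible because each group has 1 array. A fit without 1 array has no residual degree of freedom for both terms, so the ratios within a strain stand for what the other strain's arrays do not decide. Counts of member genes with a called probe set moved as follows. For diet, the 1 gene called higher became 0 with floors of 50 and 200, with no filter and with diet alone. For strain, the 1 gene called higher became 3 without scaling, 2 with the brightest probe set of each gene, and 0 with a floor of 200, with no filter, with averaged probe sets and with strain alone. With a floor of 200, 17.5% of rows were flat, and with no filter 34.3%, and the prior degrees of freedom of limma were 0.474 and 0.344, against 7.30 in the fit reported. On low-fat, 1 gene was past 2-fold with A/J the higher, but 3 without scaling and 0 with a floor of 200, and 1 in place of 0 was lower with quantile normalization. For the difference of diet effects, 1 in place of 0 was lower with a floor of 50 and with the pseudocount. Some member effects changed sign. For diet, without scaling, they became -0.087 for Acly 1451666_at, -0.070 for Elovl5 1437211_x_at and -0.048 for Fads2 1449325_at, and with averaged probe sets -0.058 for Elovl5. For strain they became 0.095 for Me1 1416632_at, 0.19 for Acly 1425326_at and 0.044 for Fads2 1419031_at without scaling. Me1 1416632_at became 0.39 with a floor of 50 and 0.34 with the pseudocount, Scd2 1415823_at became -0.039 with a floor of 200, and Fads2 1449325_at became -0.0024 with quantile normalization and -0.078 with averaged probe sets. Without scaling the median of all probe sets shifted to 0.21 between strains on low-fat and 0.30 on high-fat, and to -0.13 with diet in C57BL/6J. Over all rows tested, limma called 18 higher and 5 lower with diet, 34 and 15 with 1 row per gene (brightest), and 0 and 0 with a floor of 200 (724 and 607 at an unadjusted p under 0.05). For strain it called 318 and 335, 1199 higher without scaling, and 0 and 0 with a floor of 200 (1160 and 923 unadjusted).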
